A study of Mus musculus with 95 samples.

Results

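Liver gene expression after 4 days of amiodarone at 60 mg/kg was set directly against that after 4 days of valproic acid at 500 mg/kg, with 4 arrays in each group, 8 of the 95 arrays of a mouse study of drug-induced steatosis. The arrays were chosen by the compound, dose and day in their labels, and no measured value entered the choice. All came from male C57BL/6 mice of 10 weeks that were dosed by oral gavage, and 4 arrays of mice given the phosphate-buffered saline (PBS) vehicle for 4 days served both compounds. The same compounds at the same doses were measured in other arrays after 1 day (4 per group) and after 11 days (5 per group). Whether each array stands for an animal of its own is not stated in the labels. The p-values measure the spread between samples within groups, taken over all 95 arrays, and this spread may be technical. The 2 doses differ, so every difference below is between these 2 treatments, and compound and dose cannot be told apart.

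Amiodarone is an antiarrhythmic drug whose cationic, amphiphilic molecules collect in lysosomes and mitochondria. Valproic acid is an antiepileptic drug and a branched-chain fatty acid, which cells join to coenzyme A and which inhibits histone deacetylases. Both are known to cause fat storage in hepatocytes, where fatty acids are oxidised, esterified into droplets or exported in lipoproteins. In this tissue the nuclear receptor PPARA, which binds fatty acids, switches on genes of fatty acid oxidation, and SREBP factors switch on genes of cholesterol and fatty acid synthesis. Hepatocytes answer inflammatory cytokines with the acute phase response, the secretion of a set of plasma proteins.

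Values are log2 expression on the scale of the deposited RMA (robust multi-array average) table, and differences are amiodarone minus valproic acid unless another pair is named. A gene was called at a limma p adjusted over 16464 genes under 0.05. On day 4, 1407 genes (8.55%) were called, 800 higher (4.86%) and 607 lower (3.69%) with amiodarone, and the median difference of all genes was -0.000414. Of the called genes, 83 were higher and 43 lower by more than 2-fold. Every amiodarone array lay above every valproic acid array for 1178 genes (7.16%) and below for 997 (6.06%), and 1166 of the 1407 called genes were among these. Medians of the 12 arrays of day 4 lay between 3.089 and 3.125, correlations within groups between 0.9929 and 0.9961, and a group mean below the array median is close to background, so that a fold change from it is understated. The hepatocyte markers were far above background in all 3 groups, with summed linear levels of 76600 to 79000 on amiodarone, 82500 to 86400 on valproic acid and 83200 to 85600 on PBS arrays, while 10 of 14 lymphocyte, 8 of 11 cholangiocyte and 6 of 8 exocrine pancreas markers were below the array median in all 3 groups.

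Single arrays stood apart in some genes. Amiodarone array 017 had the highest acute phase values of its group and the lowest values of most peroxisomal oxidation genes, PBS array 040 had the highest values of most acute phase and macrophage genes in its group, and valproic acid array 004 had the highest values of several chaperones in its group. Without amiodarone array 017, 1220 genes were called on day 4, and without valproic acid array 004, 1121 were. Leaving out array 017 moved no list count of 3 or more by over 1.5 times in the direct comparison. Lists whose counts moved more with another array are given with those values.

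**Figure D1:**
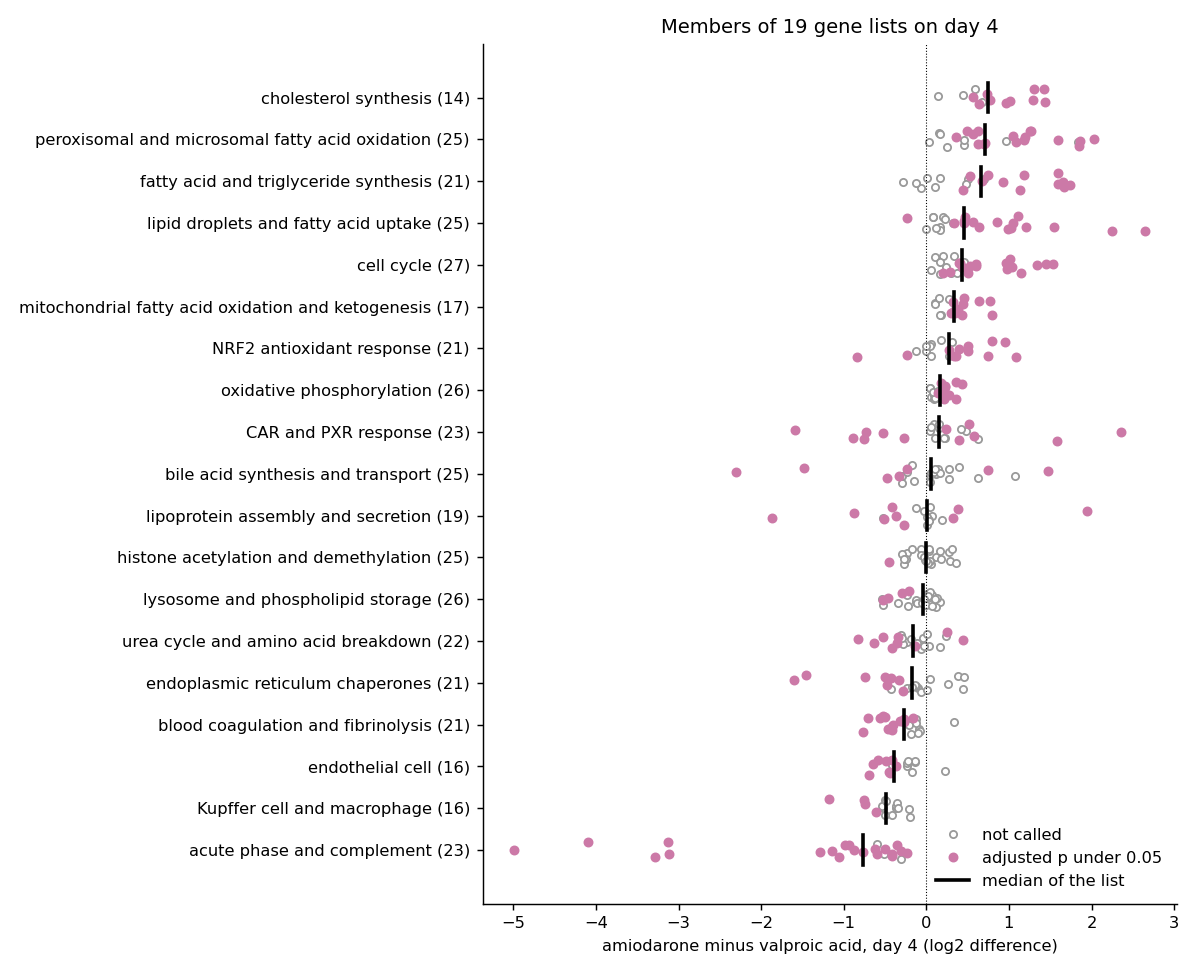
Members of 19 gene lists by their log2 difference, amiodarone minus valproic acid, on day 4 (horizontal axis), with the number measured in brackets. Filled points were called, open points were not, and black bars are list medians, which run from 0.75 for cholesterol synthesis down to -0.77 for acute phase and complement.

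Genes that make fatty acids and triglycerides were higher with amiodarone than with valproic acid. Of 21 measured members of the list, 12 were called higher and 0 lower (4.86% and 3.69% of all genes), and the median difference was 0.67. Fasn, fatty acid synthase, read 10.73, 9.83, 10.04 and 10.14 on amiodarone arrays, against 8.99, 8.67, 8.43 and 8.25 on valproic acid arrays and 9.32, 9.43, 9.52 and 9.79 on PBS arrays. Every amiodarone array was above every valproic acid array, and the PBS arrays lay between the groups. The difference was 1.60 ± 0.31 (SE), or 3.02-fold, with an adjusted p of 0.00013. Elovl6, which lengthens palmitate, differed by 1.74 ± 0.30 (adjusted p = 1.4e-05), and Thrsp, a regulator of lipogenesis, by 1.65 ± 0.30 (adjusted p = 3.6e-05). Me1, the malic enzyme that makes NADPH for lipogenesis, averaged 10.73 ± 0.12 with amiodarone, 9.06 ± 0.25 with valproic acid and 8.95 ± 0.19 with PBS (SD, n = 4 each), a 3.17-fold difference between the compounds (adjusted p = 1.8e-08). Scd1, Fads2, Acacb, Acaca and Gpam, enzymes of desaturation, malonyl-CoA synthesis and the first acylation of glycerol, were called higher too, by 1.18, 1.59, 1.14, 0.67 and 0.93.

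The 2 comparisons with PBS share the same 4 vehicle arrays, so their values are given side by side. For Thrsp the difference from PBS was 0.11 ± 0.30 with amiodarone (adjusted p = 0.93) and -1.53 ± 0.30 with valproic acid (adjusted p = 0.00054). For Elovl6 these were 0.60 ± 0.30 (adjusted p = 0.30) and -1.14 ± 0.30 (adjusted p = 0.018). Me1 had the other arrangement, 1.78 ± 0.22 with amiodarone (adjusted p = 1.4e-09) and 0.11 ± 0.22 with valproic acid (adjusted p = 0.90). Over the list, 7 members were called higher and 2 lower than PBS with amiodarone (4.01% and 2.2% of all genes), and 0 higher and 4 lower with valproic acid (1.32% and 1.04%). Aacs, which activates ketone bodies for lipid synthesis, followed Elovl6, with 0.49 ± 0.33 (adjusted p = 0.53) against PBS for amiodarone and -1.58 ± 0.33 (adjusted p = 0.0015) for valproic acid, and 2.07 ± 0.33 between the compounds (adjusted p = 3.2e-06).

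Genes for storing lipid in droplets and taking up fatty acids were also mostly higher with amiodarone, 15 of 25 measured against 1 lower, with a median of 0.46. Mogat1, which makes diacylglycerol, read 4.88, 5.28, 5.76 and 5.10 on amiodarone arrays, against 3.18, 3.17, 3.07 and 2.59 on valproic acid arrays and 3.08, 2.89, 2.71 and 2.71 on PBS arrays. The amiodarone arrays stood apart, and both other groups were close to background. The difference was 2.25 ± 0.16 (4.77-fold, adjusted p = 4.8e-19). G0s2, an inhibitor of the lipase that empties droplets, read 8.65, 10.08, 10.63 and 9.44 with amiodarone, against 6.74, 7.48, 7.49 and 6.50 with valproic acid and 9.35, 8.76, 10.57 and 9.04 with PBS. Here the valproic acid arrays stood below the rest: amiodarone minus valproic acid was 2.65 ± 0.49 (6.27-fold, adjusted p = 5.6e-05), and valproic acid minus PBS was -2.38 ± 0.49 (adjusted p = 0.0011). Amiodarone minus PBS was 0.27 ± 0.49 for G0s2 (adjusted p = 0.88).

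Plin2, the main droplet coat protein of hepatocytes, averaged 11.80 ± 0.34 with amiodarone, 10.59 ± 0.15 with valproic acid and 10.95 ± 0.17 with PBS (SD, n = 4 each), a 2.31-fold difference between the compounds (adjusted p = 5.4e-09). Cd36, a fatty acid transporter, read 7.26, 7.32, 7.83 and 7.73 with amiodarone, against 6.63, 5.69, 6.05 and 5.58 with valproic acid and 5.43, 5.21, 5.36 and 5.20 with PBS. The groups did not overlap, and the difference was 1.55 ± 0.25 (adjusted p = 4.1e-06). Cidec, a droplet fusion protein, was below the array median in all 3 groups, its groups overlapped, and its call (0.47 ± 0.12, adjusted p = 0.0067) was lost without amiodarone array 069 (0.23, adjusted p = 0.289), without valproic acid array 004 (0.39, adjusted p = 0.0609), and when the 8 arrays alone were fitted (adjusted p = 0.235). Adipocyte markers share Cidec and Lipe with this list: 3 of 8 were called higher, 1 without valproic acid array 004, and their summed level was 5490 to 6520 with amiodarone, 4370 to 5350 with valproic acid and 5980 to 7690 with PBS. Adipoq, Lep and Retn, which define adipocytes, were below the array median in all 3 groups.

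**Figure D2:**
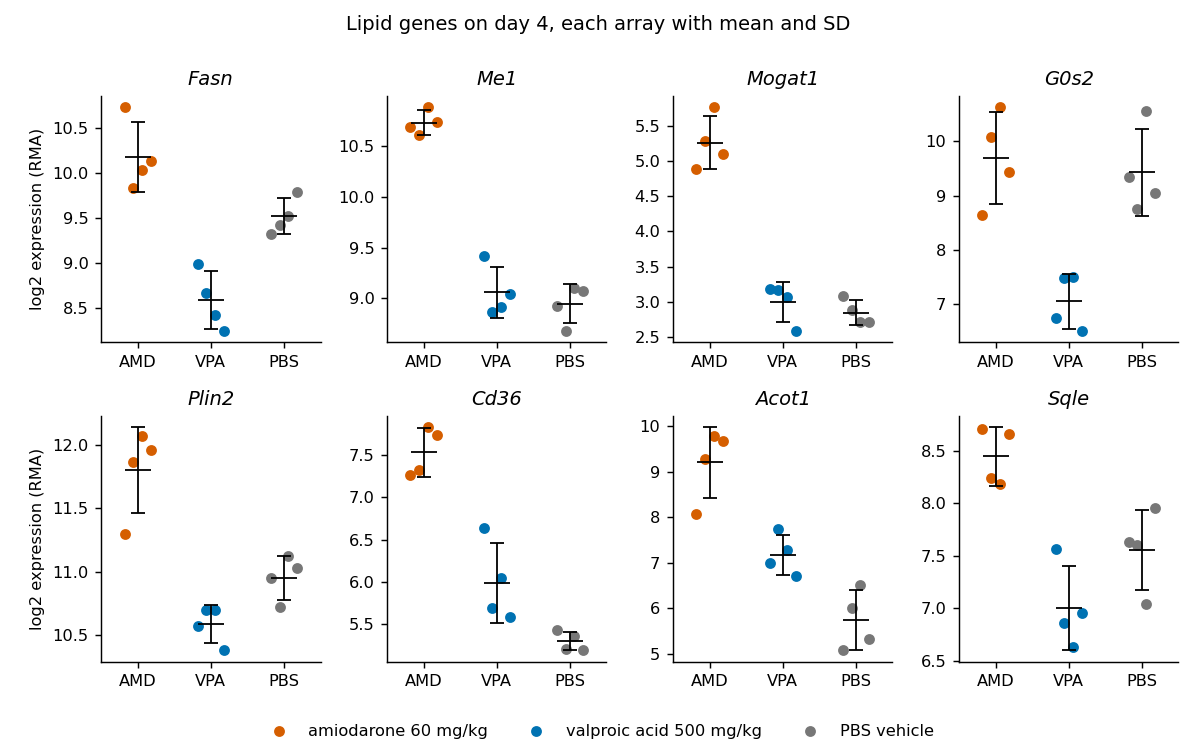
Log2 expression (vertical axis) of 8 lipid genes on each array of day 4 for amiodarone (AMD), valproic acid (VPA) and PBS, with group mean and SD. For all 8 genes the amiodarone arrays lie above the valproic acid arrays, and the place of the PBS arrays differs. They lie at the level of amiodarone for G0s2, at that of valproic acid for Me1 and Mogat1, and below valproic acid for Cd36 and Acot1.

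Members of the peroxisomal and microsomal fatty acid oxidation list were higher with amiodarone, 17 of 25 measured and 0 lower (median 0.71). Many are known PPARA targets, and some, such as Pdk4 and Vnn1, act elsewhere in the cell. Acot1, a thioesterase that frees fatty acids from coenzyme A, read 8.08, 9.28, 9.79 and 9.67 with amiodarone, against 7.00, 7.74, 7.28 and 6.70 with valproic acid and 5.07, 6.00, 6.52 and 5.32 with PBS. The 3 groups did not overlap, amiodarone array 017 was the lowest of its group, and the compounds differed by 2.03 ± 0.34 (4.07-fold, adjusted p = 9.5e-06). Cyp4a31, a fatty acid hydroxylase, read 9.17, 10.44, 10.47 and 10.52 with amiodarone, against 8.44, 8.38, 8.37 and 7.98 with valproic acid and 5.02, 5.43, 5.82 and 5.19 with PBS. Both compounds stood above PBS, by 4.79 ± 0.32 for amiodarone (adjusted p = 4.3e-21) and 2.93 ± 0.32 for valproic acid (adjusted p = 3.1e-10). Vnn1, a pantetheinase, differed from PBS by 2.66 ± 0.31 with amiodarone and 1.39 ± 0.31 with valproic acid (adjusted p = 4.6e-10 and 0.0036), and by 1.27 ± 0.31 between them (adjusted p = 0.0032).

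Other members had another arrangement. Pdk4, the kinase that shuts off pyruvate dehydrogenase, read 3.71, 4.20, 6.05 and 4.28 with amiodarone, against 3.03, 2.54, 2.77 and 2.48 with valproic acid and 2.42, 2.49, 2.61 and 2.79 with PBS, where both last groups were close to background. Amiodarone array 069 was the highest, and the difference was 1.85 ± 0.22 (adjusted p = 1.1e-09). Cyp4a14, another fatty acid hydroxylase, read 12.24, 12.55, 12.61 and 12.81 with amiodarone, against 12.51, 12.32, 12.47 and 12.32 with valproic acid and 5.61, 8.42, 9.48 and 6.62 with PBS. The compound groups overlapped, and their difference of 0.15 had a 95% interval from -1.51 to 1.80 (adjusted p = 0.96), which does not show equal levels. Each stood far above PBS, by 5.02 ± 0.83 for amiodarone and 4.88 ± 0.83 for valproic acid (adjusted p = 8.1e-06 and 5.2e-05). Over the list, 22 members were called higher than PBS with amiodarone (4.01% of all genes) and 8 with valproic acid (1.32%), with 0 lower in either. The Cyp4a and Acot genes are families of close copies, and a probe set may measure more than 1 copy.

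Mitochondrial fatty acid oxidation showed smaller differences, with 11 of 17 measured members higher and 0 lower and a median of 0.34. Decr1, an auxiliary enzyme for unsaturated fatty acids, read 8.64, 9.10, 9.18 and 9.08 with amiodarone, against 8.20, 8.26, 8.27 and 8.12 with valproic acid and 8.01, 7.93, 8.26 and 7.80 with PBS. The amiodarone arrays were above all others, by 0.79 ± 0.11 from valproic acid (1.73-fold, adjusted p = 5.6e-08). Eci1, which shifts double bonds, and Cpt2, the inner carnitine palmitoyltransferase, differed by 0.77 ± 0.11 and 0.64 ± 0.11 (adjusted p = 9e-08 and 1.3e-05). Cpt1a, the outer transferase that admits fatty acids to mitochondria, averaged 9.25 ± 0.08 with amiodarone, 8.98 ± 0.17 with valproic acid and 9.21 ± 0.19 with PBS (SD, n = 4 each), and its groups overlapped (0.27 ± 0.12, adjusted p = 0.19). Among genes of coenzyme A and carnitine metabolism, 8 of 20 were higher and 0 lower. Crat, carnitine acetyltransferase, differed by 1.05 ± 0.16 (adjusted p = 8.3e-07), although amiodarone array 017 at 3.59 fell within the valproic acid range of 3.27 to 3.60.

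Oxidative phosphorylation genes differed little per gene, with a median of 0.16 and 13 of 26 called higher and 0 lower. Ndufs1, a subunit of complex I, averaged 9.25 ± 0.08 with amiodarone, 8.89 ± 0.10 with valproic acid and 9.05 ± 0.10 with PBS (SD, n = 4 each), a 1.28-fold difference (adjusted p = 5e-05). Ndufb3, also of complex I, differed by 0.43 ± 0.12 (adjusted p = 0.012), and the call was lost without amiodarone array 053 (adjusted p = 0.0551) or 069 (adjusted p = 0.134), or when the 8 arrays alone were fitted (adjusted p = 0.0583). The count of 13 fell to 8 without array 053, to 6 without array 069, and to 2 when the 8 arrays alone were fitted, while the median stayed between 0.14 and 0.16 in these fits.

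Cholesterol synthesis was the list with the highest median in the direct comparison among the 29 gene lists, 0.75, with 10 of 14 measured members higher and 0 lower. Sqle, squalene epoxidase, read 8.71, 8.24, 8.19 and 8.66 with amiodarone, against 7.57, 6.86, 6.63 and 6.96 with valproic acid and 7.63, 7.60, 7.04 and 7.96 with PBS. The amiodarone arrays were above all others, and the difference from valproic acid was 1.44 ± 0.27 (2.72-fold, adjusted p = 6.2e-05). Hsd17b7, which reduces a sterol ketone, read 8.19, 7.89, 7.96 and 8.06 with amiodarone, against 7.27, 6.66, 6.34 and 6.61 with valproic acid and 6.85, 7.30, 7.35 and 7.44 with PBS. It differed by 1.30 ± 0.20 (adjusted p = 9.5e-07), and Mvd, mevalonate diphosphate decarboxylase, by 1.42 ± 0.34 (adjusted p = 0.0026). Against PBS, 10 members were called higher with amiodarone (4.01% of all genes), with a median of 0.71. With valproic acid 0 were higher and 1 lower (1.32% and 1.04% of all genes), with a median of -0.13. The count against PBS for amiodarone was 5 without PBS array 040 and 5 without amiodarone array 017.

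Lipoprotein genes moved in both directions, 3 of 19 higher and 6 lower, with a median of 0.01. Apoa4, an apolipoprotein of triglyceride-rich particles, read 7.34, 6.63, 6.99 and 6.29 with amiodarone, against 9.61, 7.73, 9.22 and 8.18 with valproic acid and 8.60, 8.08, 8.78 and 8.64 with PBS. All 4 amiodarone arrays were below the other groups, with -1.87 ± 0.28 for amiodarone minus valproic acid (adjusted p = 8e-07) and -1.71 ± 0.28 for amiodarone minus PBS (adjusted p = 7.4e-06). Pltp, which moves phospholipids between lipoproteins, ran the other way, at 8.72, 8.56, 8.13 and 8.23 with amiodarone, against 6.34, 6.65, 6.55 and 6.34 with valproic acid and 6.91, 6.74, 7.41 and 6.64 with PBS, a difference of 1.94 ± 0.26 between the compounds (adjusted p = 3.6e-08). Scarb1, the HDL receptor, was lower by -0.87 ± 0.11 (adjusted p = 1.1e-08), and Mttp, which loads lipid onto apolipoprotein B, was higher by 0.32 ± 0.08 (adjusted p = 0.0023).

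Bile acid genes had 2 of 25 members higher and 5 lower, with a median of 0.06, with 3 lower without amiodarone array 069 or when the 8 arrays alone were fitted, and 4 higher and 5 lower without amiodarone array 017. Slc22a7, a basolateral organic anion transporter, read 5.91, 5.66, 6.49 and 4.63 with amiodarone, against 7.60, 8.32, 8.13 and 7.87 with valproic acid and 8.63, 7.45, 7.56 and 8.27 with PBS. The amiodarone arrays were below all others, and the difference was -2.31 ± 0.39 from valproic acid (4.96-fold lower, adjusted p = 1.1e-05) and -2.31 ± 0.39 from PBS (adjusted p = 1.3e-05). Cyp39a1, an oxysterol hydroxylase, was lower by -1.48 ± 0.21 (adjusted p = 3.4e-07), and Cyp8b1, which makes cholic acid, was higher by 1.47 ± 0.26 (adjusted p = 2.6e-05). Cyp7a1, the rate-limiting enzyme of bile acid synthesis, read 8.60, 9.06, 8.00 and 7.67 with amiodarone, against 8.34, 7.36, 6.48 and 6.89 with valproic acid. These overlapped and gave 1.07 ± 0.47 (adjusted p = 0.17).

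Genes answering the xenobiotic receptors CAR and PXR were split, with 6 of 23 higher and 6 lower and a median of 0.15. Cyp2b10, the classical CAR target, read 5.72, 4.32, 4.35 and 4.17 with amiodarone, against 7.22, 5.77, 6.38 and 5.55 with valproic acid and 2.76, 2.82, 2.94 and 3.20 with PBS, where it was close to background. Amiodarone array 017 reached into the valproic acid range, and the difference was -1.59 ± 0.37 (3.02-fold lower, adjusted p = 0.0019). Both compounds stood above PBS, by 1.71 ± 0.37 for amiodarone and 3.30 ± 0.37 for valproic acid (adjusted p = 0.00091 and 6.3e-10). Cyp2c55, a fatty acid oxygenase of the same list, read 8.36, 8.70, 8.37 and 8.61 with amiodarone, against 6.14, 6.59, 5.64 and 6.21 with valproic acid and 6.24, 6.48, 6.55 and 6.37 with PBS, and differed by 2.36 ± 0.24 (5.15-fold, adjusted p = 1.2e-11). Gstm3, a glutathione transferase, differed by 1.58 ± 0.31 (adjusted p = 0.00014). Cyp3a11, the main PXR target, was near the top of the scale in all 3 groups, with 13.28 ± 0.04 for amiodarone, 13.03 ± 0.03 for valproic acid and 12.99 ± 0.12 for PBS (SD, n = 4 each), and differed by 0.24 ± 0.05 (adjusted p = 0.00038).

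Targets of NRF2, the oxidative stress factor, were called higher in 10 of 21 and lower in 2, with a median of 0.28. Srxn1, sulfiredoxin, read 5.31, 5.27, 5.68 and 5.29 with amiodarone, against 4.66, 4.02, 4.29 and 4.22 with valproic acid and 4.09, 4.45, 4.31 and 4.33 with PBS. The amiodarone arrays were above both other groups, by 1.09 ± 0.12 from valproic acid (adjusted p = 4e-10). Gstm4, another glutathione transferase, differed by 0.95 ± 0.15 (adjusted p = 1.4e-06). Osgin1, an oxidative stress growth inhibitor, was called lower by -0.84 ± 0.28 (adjusted p = 0.044), a call lost without any of arrays 008, 017, 053, 068, 069, 092 and 093, with adjusted p between 0.0645 and 0.222, and with a variance trend and robust estimation (adjusted p = 0.0502).

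Cell cycle genes were higher with amiodarone in 17 of 27 and lower in 0, with a median of 0.43. Cdc20, an activator of the anaphase-promoting complex, read 5.11, 5.11, 4.42 and 4.40 with amiodarone, against 3.09, 3.18, 3.04 and 3.61 with valproic acid and 3.90, 3.29, 3.76 and 3.59 with PBS. Mcm6, a subunit of the replicative helicase, read 4.69, 4.13, 4.60 and 4.61 with amiodarone, against 3.13, 3.00, 2.96 and 3.14 with valproic acid and 3.07, 3.03, 2.90 and 3.17 with PBS. In both genes the amiodarone arrays were above all others, and the differences from valproic acid were 1.53 ± 0.33 and 1.45 ± 0.22 (adjusted p = 0.00057 and 5.5e-07). Ccnd1, cyclin D1, which drives entry into the cycle, differed by 1.34 ± 0.25 (adjusted p = 5.6e-05). Levels were low: 8 of the 27 were below the array median with amiodarone, 16 with valproic acid and 16 with PBS, and of the 12 kept when genes below the median mean level were left out, 7 were called higher.

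Rad51b, a gene of homologous recombination, read 6.53, 7.11, 7.78 and 7.61 with amiodarone, against 5.27, 4.53, 5.45 and 4.38 with valproic acid and 2.56, 2.27, 2.89 and 2.48 with PBS. The 3 groups were apart, and the PBS group was close to background. The compounds differed by 2.35 ± 0.27 (5.10-fold, adjusted p = 8.2e-10), and each differed from PBS, by 4.71 ± 0.27 for amiodarone and 2.36 ± 0.27 for valproic acid (adjusted p = 2.3e-24 and 1.3e-09). Among p53 targets 3 of 18 were higher and 0 lower: Cdkn1a, a cell cycle inhibitor, by 0.51 ± 0.09 (adjusted p = 3.6e-05), Ccng1 by 0.43, and Gadd45a, a DNA damage gene, by 0.93 ± 0.28 (adjusted p = 0.025). The call of Gadd45a was lost without array 017, 069 or 092 (adjusted p = 0.0565, 0.212 and 0.101). Cib3, a calcium-binding protein and the gene with the highest difference among those chosen for their size, read 7.72, 7.46, 7.40 and 7.15 with amiodarone, against 4.22, 5.03, 4.76 and 4.21 with valproic acid and 7.07, 7.02, 6.11 and 6.78 with PBS. The valproic acid arrays were below all others, by 2.87 ± 0.39 from amiodarone (7.32-fold, adjusted p = 4.7e-08).

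Acute phase and complement genes were lower with amiodarone than with valproic acid in 20 of 23 and higher in 0, with a median of -0.77. Lcn2, lipocalin 2, which binds bacterial siderophores, read 6.59, 3.84, 4.02 and 5.16 with amiodarone, against 10.21, 9.44, 10.04 and 9.88 with valproic acid and 7.71, 3.68, 4.10 and 4.93 with PBS. The valproic acid arrays were above all others, by 31.8-fold over amiodarone (-4.99 ± 1.07, adjusted p = 0.0006), and amiodarone array 017 and PBS array 040 were the highest of their groups. Orm2, an orosomucoid, read 7.96, 5.31, 5.20 and 5.44 with amiodarone, against 10.27, 9.43, 10.21 and 10.39 with valproic acid and 8.68, 5.92, 6.03 and 6.32 with PBS. Array 017 in the amiodarone group and array 040 in the PBS group again stood above the rest of their groups. The difference was -4.10 ± 0.79 (adjusted p = 0.00012). Saa1, serum amyloid A, read 9.06, 7.16, 7.67 and 8.44 with amiodarone, against 10.76, 11.63, 11.04 and 11.41 with valproic acid and 11.79, 7.93, 8.21 and 9.35 with PBS, so that PBS array 040 was above every valproic acid array (-3.13 ± 0.85 between the compounds, adjusted p = 0.0094). Saa2 differed by -3.11 ± 0.97 (adjusted p = 0.028), and the call was lost without array 008, 053, 069, 092 or 093, with adjusted p between 0.0524 and 0.115. The Saa and Orm genes are families of close copies, and a probe set may measure more than 1 copy.

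Against PBS, 0 members of the acute phase list were called higher and 6 lower with amiodarone (4.01% and 2.2% of all genes). With valproic acid 9 were higher and 0 lower (1.32% and 1.04%). Without PBS array 040 these counts were 0 higher and 2 lower for amiodarone, and 11 higher and 0 lower for valproic acid. In the direct comparison the count was 20 of 23 also without amiodarone array 017, with a median of -0.80. Socs3, an inhibitor of cytokine signalling, read 3.88, 3.72, 3.95 and 4.15 with amiodarone, against 5.20, 6.88, 5.44 and 6.72 with valproic acid and 4.31, 3.69, 4.10 and 3.94 with PBS. The valproic acid arrays were above all others, and amiodarone minus valproic acid was -2.13 ± 0.49 (adjusted p = 0.0015). Il1r1, the receptor of interleukin 1, differed by -1.54 ± 0.28 (adjusted p = 3.6e-05), and Cxcl1, a neutrophil chemokine, by -1.96 ± 0.55 (adjusted p = 0.012), or -1.83 and adjusted p = 0.0506 without amiodarone array 069. Prtn3, a myeloid protease, differed by -3.50 ± 0.58 (adjusted p = 5.7e-06) and was close to background with amiodarone. Of 10 neutrophil markers 0 were called in either direction, 7 were below the array median in all 3 groups, Mpo and Elane among them, and their summed level was 74.0 to 109 with amiodarone, 84.2 to 95.2 with valproic acid and 70.7 to 105 with PBS.

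**Figure D3:**
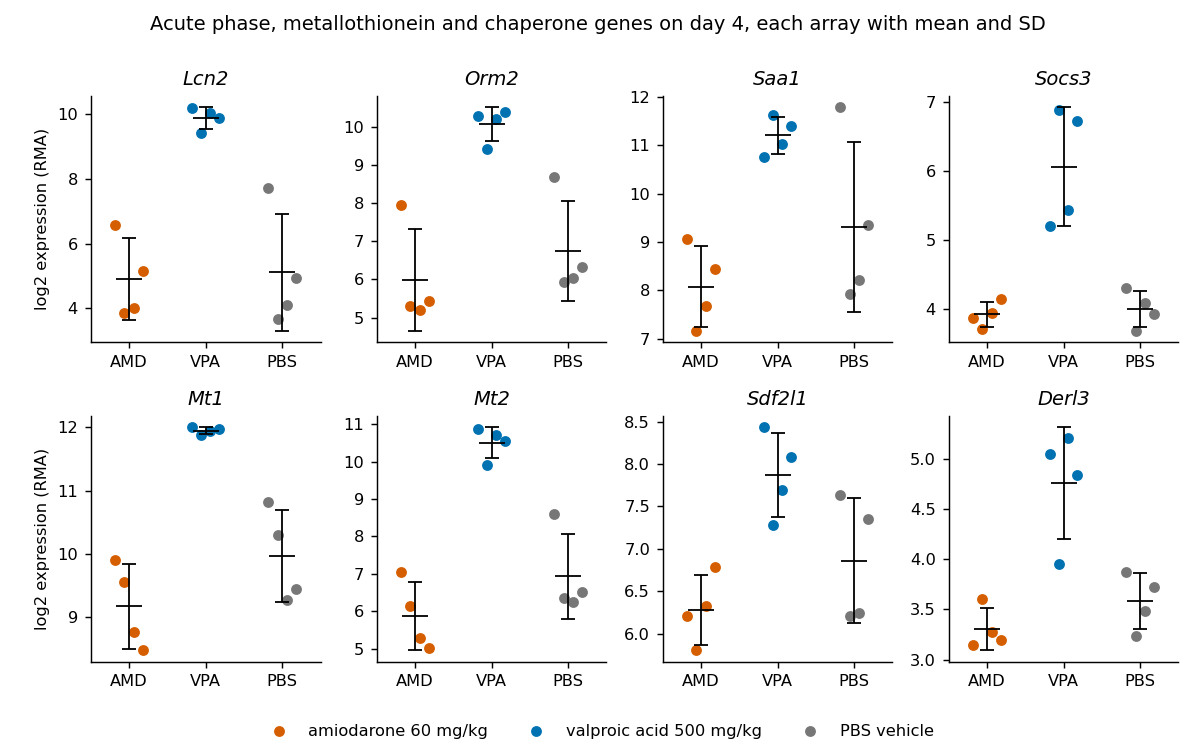
Log2 expression (vertical axis) of 8 acute phase, metallothionein and chaperone genes on each array of day 4 for amiodarone (AMD), valproic acid (VPA) and PBS, with group mean and SD. The valproic acid arrays lie above the amiodarone arrays for all 8 genes, and 1 PBS array reaches or passes the valproic acid level for Saa1.

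The metallothioneins Mt1 and Mt2, which bind zinc and copper, were much lower with amiodarone than with valproic acid. Mt2 read 7.04, 6.14, 5.29 and 5.01 with amiodarone, against 10.87, 9.90, 10.70 and 10.56 with valproic acid and 8.61, 6.35, 6.25 and 6.51 with PBS. Mt1 read 9.90, 9.55, 8.77 and 8.47 with amiodarone, against 12.01, 11.88, 11.95 and 11.98 with valproic acid and 10.82, 10.30, 9.27 and 9.45 with PBS. For both genes the valproic acid arrays were above all others, by 24.9-fold over amiodarone for Mt2 (-4.64 ± 0.88, adjusted p = 9.2e-05) and 6.88-fold for Mt1 (-2.78 ± 0.59, adjusted p = 0.00055). These 2 genes, Lcn2 and Gadd45g also stand in the glucocorticoid response list, in which 5 of 16 were lower and 1, Pdk4, was higher. Gadd45g, a stress-inducible growth inhibitor, differed by -1.92 ± 0.65 (adjusted p = 0.048), and the call was lost without any of arrays 008, 017, 053, 069, 092 and 093 (adjusted p between 0.0658 and 0.24), with a variance trend and robust estimation (0.0591), and with blocks of 24 sample numbers (0.0522).

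The promoters of both metallothioneins are shown because the genes moved together and their control by metal response elements is well known. They are 250 bases before and 50 bases after the RefSeq start in build GRCm38.p6, at chr8:94178839-94179138 on the plus strand for Mt1 and chr8:94172368-94172667 on the plus strand for Mt2. Capitals mark matches, on either strand, to the metal response element core, TGCACNC or TGCGCNC.
Mt1: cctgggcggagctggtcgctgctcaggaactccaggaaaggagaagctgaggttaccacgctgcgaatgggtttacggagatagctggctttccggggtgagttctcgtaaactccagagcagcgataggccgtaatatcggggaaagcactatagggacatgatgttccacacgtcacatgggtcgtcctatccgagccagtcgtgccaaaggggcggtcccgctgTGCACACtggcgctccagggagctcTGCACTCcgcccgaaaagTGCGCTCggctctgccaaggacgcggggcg
Mt2: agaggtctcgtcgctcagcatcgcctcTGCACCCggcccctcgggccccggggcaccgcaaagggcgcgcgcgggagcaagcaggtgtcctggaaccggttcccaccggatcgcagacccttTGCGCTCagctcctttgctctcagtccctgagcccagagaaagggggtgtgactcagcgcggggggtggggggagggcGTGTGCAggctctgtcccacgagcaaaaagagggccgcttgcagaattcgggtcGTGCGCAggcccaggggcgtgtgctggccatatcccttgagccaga
Mt1 held 3 matches and Mt2 held 4, while 25.7% of 32851 promoters of this length held at least 1 and 1.97% held 3 or more. The motif was chosen with the expression values known, for genes whose control by it was already known, so these counts test nothing. A match describes letters, not binding.

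Chaperones of the endoplasmic reticulum were lower with amiodarone in 8 of 21 and higher in 0, with a median of -0.17, and the count was 5 without valproic acid array 004. Sdf2l1, part of a chaperone complex, read 6.21, 5.80, 6.32 and 6.79 with amiodarone, against 8.44, 7.28, 7.70 and 8.08 with valproic acid and 7.64, 6.21, 6.24 and 7.35 with PBS. The compounds did not overlap (-1.60 ± 0.31, adjusted p = 0.00015), and the PBS arrays reached into both groups. Derl3, of the degradation pathway for misfolded proteins, read 3.14, 3.60, 3.27 and 3.19 with amiodarone, against 5.05, 3.95, 5.21 and 4.84 with valproic acid and 3.87, 3.23, 3.48 and 3.72 with PBS, and differed by -1.46 ± 0.33 (adjusted p = 0.0013). Calr, the calcium-binding chaperone calreticulin, read 8.59, 8.50, 8.46 and 8.74 with amiodarone, against 9.75, 8.99, 9.24 and 9.28 with valproic acid and 9.11, 8.93, 8.77 and 9.08 with PBS, and differed by -0.74 ± 0.13 (adjusted p = 2.7e-05). Valproic acid array 004 held the highest value of its group for Sdf2l1 and Calr. Against PBS, 0 were higher and 2 lower with amiodarone (0 lower without PBS array 040), and 1 was higher and 0 lower with valproic acid. The shares of all genes were 4.01% higher and 2.2% lower with amiodarone, and 1.32% and 1.04% with valproic acid.

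Derl3 and Calr promoters are shown as called members of this list that hold a match, not as typical of the list. Some of its members are known to share a promoter motif of the endoplasmic reticulum stress response. They lie at chr10:75893148-75893447 on the plus strand and chr8:84846882-84847181 on the minus strand, from the same RefSeq table and build. Capitals mark matches, on either strand, to the endoplasmic reticulum stress element, CCAAT and CCACG with 9 bases between them.
Derl3: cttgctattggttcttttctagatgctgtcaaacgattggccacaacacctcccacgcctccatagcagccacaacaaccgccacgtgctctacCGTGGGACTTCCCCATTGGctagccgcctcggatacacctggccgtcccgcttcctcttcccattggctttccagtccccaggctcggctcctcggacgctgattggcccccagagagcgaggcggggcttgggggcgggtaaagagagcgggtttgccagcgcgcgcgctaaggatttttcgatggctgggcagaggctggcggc
Calr: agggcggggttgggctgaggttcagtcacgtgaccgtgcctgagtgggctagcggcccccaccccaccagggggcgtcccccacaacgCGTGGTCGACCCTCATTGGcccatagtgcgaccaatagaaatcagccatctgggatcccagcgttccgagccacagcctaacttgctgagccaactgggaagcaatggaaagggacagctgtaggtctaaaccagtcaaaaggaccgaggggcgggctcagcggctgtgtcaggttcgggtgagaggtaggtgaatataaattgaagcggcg
Each held 1 match, and 0.119% of the 32851 promoters held any. Of the 19 list genes with a promoter in the table, 9 held a match, and 5 of these 9 were called lower on day 4. Sdf2l1, Pdia3 and P4hb held no match and were called lower too, so calls were not confined to genes with a match. This motif too was chosen with the values known, and for a list with members already known to carry it.

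Integrated stress response genes had 2 of 23 called lower and 0 higher, or 8.7%, close to the 8.55% of all genes called. Their median was -0.055, and without valproic acid array 004 the list had 0 called. Chac1, which degrades glutathione, differed by -1.27 ± 0.39 (adjusted p = 0.024) and Ddit4, an inhibitor of mTOR, by -0.67 ± 0.21 (adjusted p = 0.033). Leaving out 1 array lost the call of Chac1 for arrays 053, 068, 069, 092, 093 and 004 (adjusted p up to 0.103) and that of Ddit4 for arrays 069, 092, 093 and 004 (adjusted p up to 0.251) and when the 8 arrays alone were fitted (adjusted p = 0.0716). Fgf21, a fasting hormone of the liver, was below the array median in all 3 groups, with 2.91 ± 0.11 for amiodarone, 2.43 ± 0.17 for valproic acid and 2.78 ± 0.41 for PBS (SD, n = 4 each), and was not called (adjusted p = 0.43), but was when the 8 arrays alone were fitted (adjusted p = 0.0125).

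Coagulation genes were lower with amiodarone in 12 of 21 and higher in 0, with a median of -0.27. Hrg, histidine-rich glycoprotein, read 11.11, 11.06, 10.90 and 11.02 with amiodarone, against 11.94, 11.68, 11.81 and 11.72 with valproic acid and 11.46, 11.39, 11.32 and 11.34 with PBS. The 3 groups were apart with PBS in the middle, and the compounds differed by -0.77 ± 0.07 (1.70-fold lower, adjusted p = 3.9e-14). F7, clotting factor VII, differed by -0.71 ± 0.09 (adjusted p = 5.6e-09), with 8.37 ± 0.16 for amiodarone, 9.08 ± 0.10 for valproic acid and 9.04 ± 0.12 for PBS (SD, n = 4 each). Against PBS, 0 were higher and 14 lower with amiodarone (4.01% and 2.2% of all genes). With valproic acid 2 were higher and 1 lower (1.32% and 1.04%).

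Amino acid breakdown and the urea cycle had 2 of 22 higher and 7 lower, with a median of -0.16. Prodh, proline dehydrogenase, differed by -0.83 ± 0.18 (adjusted p = 0.0006), Etnppl, phosphoethanolamine phospholyase, by -0.63 ± 0.20 (adjusted p = 0.028), and Hal, histidine ammonia lyase, by -0.52 ± 0.12 (adjusted p = 0.002). The count of 7 was 4 without array 068 or 093 and 3 without array 069 or 004, and the call of Etnppl was lost without array 053, 068, 069, 092, 093 or 004 (adjusted p up to 0.173). Among enzymes of branched-chain and odd-chain acyl-CoA breakdown 3 of 26 were higher and 1 lower, and 1 was higher without array 008 or 053. Lysosomal genes had 0 of 26 higher and 4 lower, with a median of -0.04, 2 lower without array 068 and 7 lower with array quality weights. Ctsa and Ctsb, lysosomal peptidases, differed by -0.53 ± 0.09 and -0.46 ± 0.08 (adjusted p = 3.3e-06 and 3.2e-05). Gpnmb, a marker of lysosomal stress, was near the array median in all 3 groups and was not called (-0.24 ± 0.13, adjusted p = 0.31). Against PBS, lysosomal genes had 3 of 26 higher and 1 lower with amiodarone (4.01% and 2.2% of all genes), with a median of 0.005. With valproic acid 2 were higher and 0 lower (1.32% and 1.04%), with a median of 0.159, and 0 were called without array 004.

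Genes of histone acetylation and demethylation had 1 of 25 called, Crebbp, a histone acetyltransferase, with a difference of -0.45 (adjusted p = 0.047). Their median was 0.001, in a comparison where 8.55% of all genes were called. Without valproic acid array 004, 1 member was called higher and 0 lower, so the call of Crebbp was lost. The circadian clock had 1 of 19 called lower, the interferon response 1 of 18 lower, gluconeogenesis and glucose handling 2 of 17 lower, mitochondrial chaperones and ribosome 3 of 21 higher (5 with array quality weights or with dim genes left out), and cytoskeleton and tight junctions 1 of 18 higher. Without amiodarone array 017 the clock and interferon lists each had 0 called. Among male-biased liver genes 2 of 15 were higher and 1 lower, and among female-biased ones 1 of 17 was higher and 1 lower. Without valproic acid array 004 the male-biased counts were 1 higher and 2 lower, and the median went from 0.25 to 0.01. The female-biased counts were then 2 higher and 0 lower. Cyp4a12a, a male-biased hydroxylase, read 10.87, 11.04, 10.87 and 11.09 with amiodarone, against 9.50, 10.06, 9.85 and 10.27 with valproic acid and 10.34, 10.23, 10.19 and 10.22 with PBS. Its difference of 1.05 ± 0.32 (adjusted p = 0.023) was not called without array 053, 068, 093 or 004 (adjusted p = 0.0564, 0.0574, 0.0595 and 0.102).

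Some Kupffer cell, endothelial and stellate cell markers were lower with amiodarone than with valproic acid. In whole liver, fewer cells of a type and less RNA per cell cannot be told apart. Of 16 Kupffer cell and macrophage markers 4 were called lower and 0 higher, with a median of -0.49, and their summed level was 1970 to 2590 with amiodarone, 2610 to 4150 with valproic acid and 1390 to 3130 with PBS. Cd163, a haemoglobin scavenger receptor, read 5.46, 4.98, 5.19 and 4.87 with amiodarone, against 6.66, 6.06, 6.19 and 6.31 with valproic acid and 5.48, 5.34, 5.56 and 5.24 with PBS. The valproic acid arrays were above all others (-1.18 ± 0.19, adjusted p = 5e-06). Csf1r, the receptor of macrophage colony-stimulating factor, differed by -0.74 ± 0.18 (adjusted p = 0.0036) and Vsig4, a complement receptor, by -0.76 ± 0.19 (adjusted p = 0.0047). The call of Vsig4 was lost without valproic acid array 092 (adjusted p = 0.0597). Against PBS the Kupffer list had 0 called with amiodarone (6.21% of all genes) and 8 higher with valproic acid (1.32%). The count of 8 was 14 without PBS array 040 and 4 without valproic acid array 004.

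Endothelial markers were lower in 8 of 16 and higher in 0, with a median of -0.39, and their summed level was 1010 to 1050 with amiodarone, 1310 to 1540 with valproic acid and 1040 to 1200 with PBS. Clec4g, a lectin of sinusoidal endothelium, read 8.47, 8.64, 8.56 and 8.52 with amiodarone, against 9.26, 9.09, 9.22 and 9.41 with valproic acid and 8.92, 8.66, 8.75 and 8.80 with PBS. It differed by -0.69 ± 0.08 (adjusted p = 7.5e-10), Stab2, a scavenger receptor, by -0.65 ± 0.12 (adjusted p = 2.7e-05), and Lyve1, a hyaluronan receptor, by -0.59 ± 0.20 (adjusted p = 0.049). The count of 8 was 5 without array 053 or 069 and 4 without array 004, and the call of Lyve1 was lost without any of 7 arrays (adjusted p between 0.0667 and 0.207). Stellate cell and fibroblast markers were lower in 6 of 16 and higher in 0, with sums of 1480 to 1670 with amiodarone, 2120 to 2210 with valproic acid and 1780 to 1900 with PBS, and 3 were lower without array 008. Lum and Dcn, matrix proteoglycans, differed by -0.71 ± 0.13 and -0.60 ± 0.09 (adjusted p = 8.8e-05 and 2.8e-07). Of the 11 hepatocyte markers 4 were lower, among them Ahsg by -0.41 and Hnf4a by -0.35. Against PBS, 0 hepatocyte markers were called with valproic acid, and 4 were lower and 0 higher with amiodarone (1 lower without PBS array 040). The called Kupffer, endothelial and stellate cell markers were higher with valproic acid than with amiodarone, as were the called acute phase and chaperone genes. The part of these cell markers in those results was not tested.

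Ighm, the heavy chain of immunoglobulin M, read 6.34, 5.76, 4.39 and 4.79 with amiodarone, against 3.53, 3.58, 3.25 and 3.76 with valproic acid and 4.00, 4.08, 3.24 and 3.93 with PBS. The amiodarone arrays were above the other 2 groups (1.79 ± 0.41, adjusted p = 0.0014). It was the 1 lymphocyte marker of 14 that was called, and the list's summed level was 147 to 226 with amiodarone, 145 to 176 with valproic acid and 132 to 174 with PBS. Pericentral and periportal hepatocyte markers had 3 of 15 and 3 of 10 called lower and 0 higher, with medians of -0.06 and 0.002, and sums that overlapped between the compounds. Cholangiocyte and exocrine pancreas markers had 0 called of 11 and of 8, and 1 of 4 erythrocyte markers, Bpgm, was higher.

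**Figure D4:**
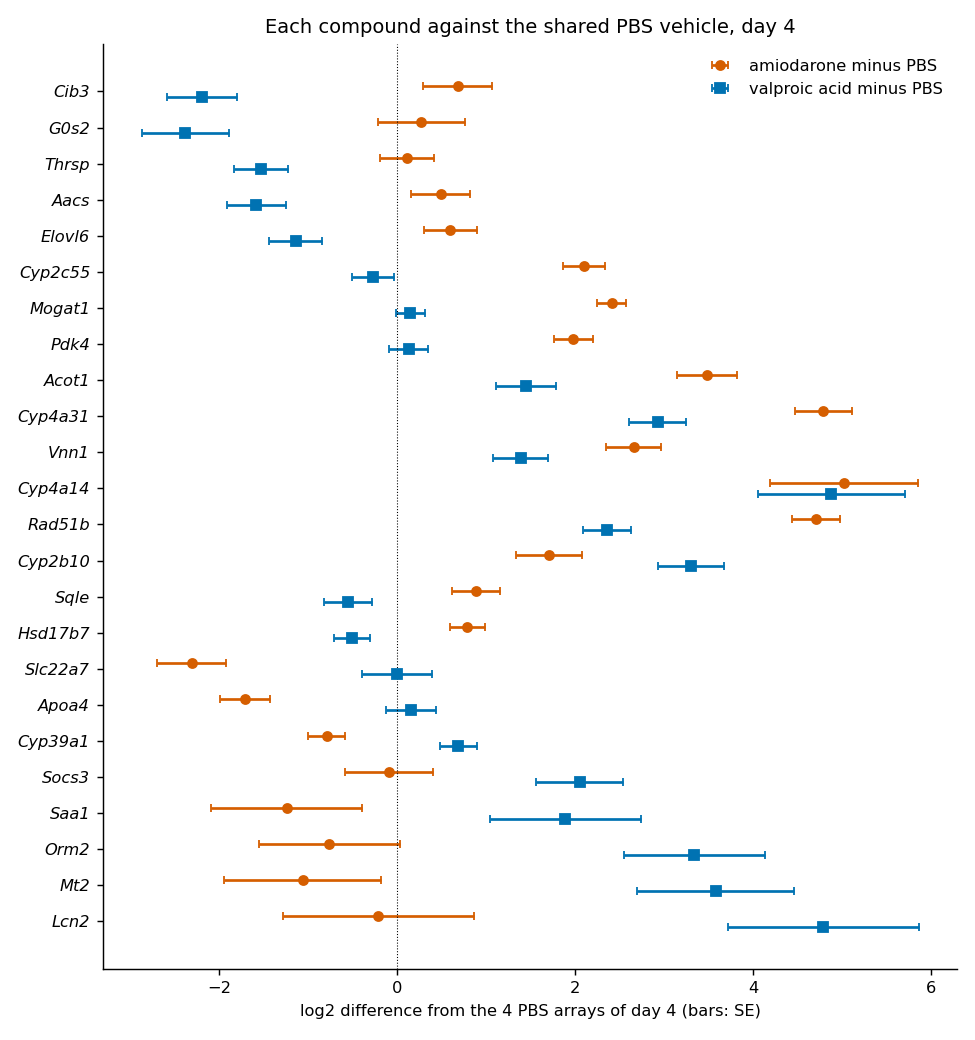
Log2 difference from the 4 PBS arrays of day 4 (horizontal axis, bars are SE) for amiodarone (circles) and valproic acid (squares) in 24 genes. The top 5 genes lie below 0 for valproic acid, Acot1 to Cyp2b10 lie above 0 for both compounds, and the bottom 5 lie above 0 for valproic acid, such as Lcn2 at -0.21 for amiodarone and 4.79 for valproic acid.

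The same difference was measured in separate arrays on days 1 and 11. On day 1, 2671 genes (16.2%) were called, 1364 higher and 1307 lower, and on day 11, 1327 (8.06%), 565 higher and 762 lower. After a further quantile normalization the calls of day 11 were 646 higher and 631 lower. Of the 1407 genes called on day 4, 528 (37.5%) were called in the same direction on day 1, which is 19.8% of the day 1 calls, and 114 (8.1%) in the opposite direction. On day 11, 470 (33.4%) were called in the same direction, 35.4% of the day 11 calls, and 9 (0.64%) in the opposite one. The difference itself changed between day 1 and day 4 for 1604 genes (9.74%) and between day 4 and day 11 for 147 (0.893%).

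Cholesterol synthesis had opposite calls on days 1 and 4. On day 1, 1 of 14 was higher and 8 were lower with amiodarone, with a median of -0.68 (8.28% and 7.94% of all genes), on day 4 10 were higher and 0 lower, and on day 11 1 was higher and 1 lower, with a median of -0.11 (3.43% and 4.63%). The change from day 1 to day 4 was called for 11 of the 14, each upward (5.09% of all genes, and 4.65% changed downward). The change from day 4 to day 11 was called for 5, each downward (0.656% of all genes). Sqle differed by -1.39 ± 0.27, 1.44 ± 0.27 and 0.04 ± 0.24 on days 1, 4 and 11, with an adjusted p of 3.5e-08 for day 4 minus day 1 and 0.037 for day 11 minus day 4. Mvd showed -1.27 ± 0.34, 1.42 ± 0.34 and -0.18 ± 0.30, with adjusted p values of 2.6e-05 and 0.066 for the same changes. Hsd17b7 changed by 1.72 ± 0.28 from day 1 to day 4 (adjusted p = 3.7e-06).

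Xenobiotic and bile acid genes also differed between days 1 and 4. On day 1 CAR and PXR genes were higher with amiodarone in 20 of 23 and lower in 1, and on day 11 higher in 6 and lower in 8, beside 6 and 6 on day 4. Bile acid genes had 15 of 25 higher and 1 lower on day 1, 2 and 5 on day 4, and 4 and 7 on day 11. Of all genes, 8.28% were higher and 7.94% lower on day 1, 4.86% and 3.69% on day 4, and 3.43% and 4.63% on day 11. Cyp2b10 differed by 2.19 ± 0.37, -1.59 ± 0.37 and -1.70 ± 0.33 on days 1, 4 and 11 (adjusted p = 2.8e-06, 0.0019 and 0.00015), and its change from day 1 to day 4 was -3.78 ± 0.53 (adjusted p = 9.4e-08). Slc22a7 gave -0.46 ± 0.39, -2.31 ± 0.39 and -1.56 ± 0.35, with a change of -1.85 ± 0.55 (adjusted p = 0.019).

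Fatty acid synthesis and droplet genes kept the sign of their list medians over the days. Synthesis genes had 16, 12 and 3 of 21 higher on days 1, 4 and 11, with 0, 0 and 1 lower. Droplet genes had 8, 15 and 13 of 25 higher, with 1, 1 and 2 lower. The peroxisomal and microsomal list had 18, 17 and 17 of 25 higher, and 0 lower on each day. Of all genes, 8.28%, 4.86% and 3.43% were higher and 7.94%, 3.69% and 4.63% lower on days 1, 4 and 11. Mogat1 differed by 0.41 ± 0.16, 2.25 ± 0.16 and 2.23 ± 0.14 on days 1, 4 and 11, and its change from day 1 to day 4 was 1.85 ± 0.23 (adjusted p = 2.9e-09). Pdk4 changed by 1.69 ± 0.31 over the same days (adjusted p = 3.6e-05), and Rad51b, at -0.02 ± 0.27, 2.35 ± 0.27 and 3.11 ± 0.24, by 2.37 ± 0.39 (adjusted p = 3.5e-06). The difference of Acot1 changed by -2.06 ± 0.48 from day 1 to day 4 (adjusted p = 0.0016), with 4.09 ± 0.34, 2.03 ± 0.34 and 2.08 ± 0.31 on days 1, 4 and 11.

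Acute phase genes were lower with amiodarone in 22, 20 and 6 of 23 on days 1, 4 and 11, with medians of -1.18, -0.77 and -0.31 and 0 higher on each day. Chaperone genes were lower in 19, 8 and 2 of 21, with medians of -1.10, -0.17 and -0.06. The change from day 1 to day 4 was called upward for 15 of them (5.09% of all genes). The shares of all genes called lower were 7.94%, 3.69% and 4.63% on days 1, 4 and 11. Lcn2 differed by -7.51 ± 1.07, -4.99 ± 1.07 and -2.01 ± 0.96 on days 1, 4 and 11, and the last of these was not called (adjusted p = 0.23). Neither change between days was called for Lcn2 (adjusted p = 0.37 and 0.36). Mt2 differed by -6.43 ± 0.88, -4.64 ± 0.88 and -3.72 ± 0.79 and was called on each day (adjusted p = 1.2e-08, 9.2e-05 and 0.00051). Sdf2l1 differed by -2.96 ± 0.31, -1.60 ± 0.31 and -0.26 ± 0.28, with a change of 1.36 ± 0.44 from day 1 to day 4 (adjusted p = 0.034).

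**Figure D5:**
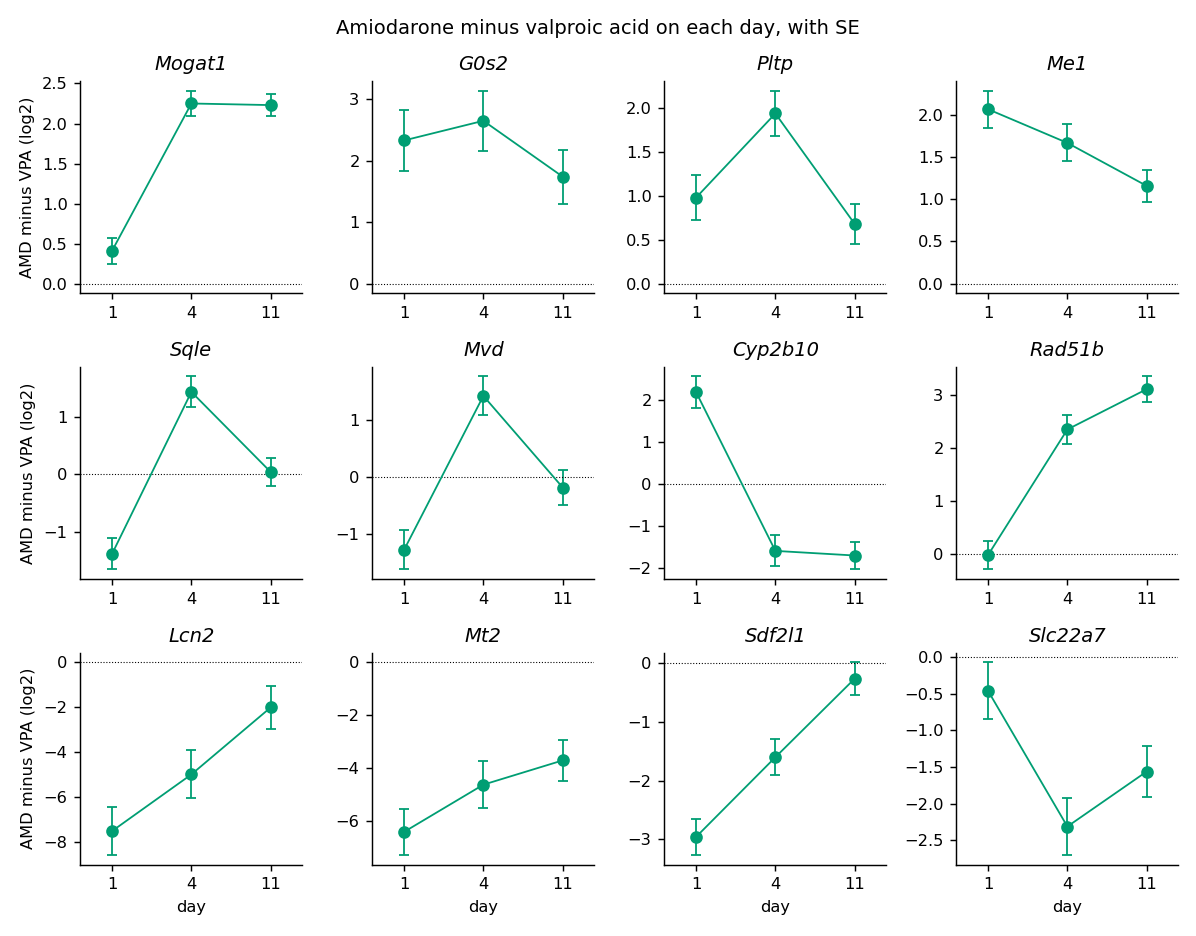
Log2 difference, amiodarone minus valproic acid, with SE (vertical axis) on days 1, 4 and 11 (horizontal axis, evenly spaced) for 12 genes. Sqle and Mvd are below 0 on day 1 and above it on day 4, Cyp2b10 is the reverse, and the lowest row stays below 0 on the 3 days.

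Amino acid and urea cycle genes had 12 of 22 higher and 3 lower on day 1, 2 and 7 on day 4, and 0 and 17 on day 11. Cell cycle genes were higher in 2, 17 and 7 of 27 and lower in 1, 0 and 0. Cytoskeleton genes were lower in 12 of 18 on day 1, against 0 on day 4 and 1 on day 11. Male-biased liver genes had 2, 2 and 7 of 15 higher and 0, 1 and 1 lower, with a median of 0.98 on day 11. Kupffer cell markers were lower in 3, 4 and 0 of 16. Of all genes, 8.28%, 4.86% and 3.43% were higher and 7.94%, 3.69% and 4.63% lower on days 1, 4 and 11. The cell cycle counts of day 1 did not exceed these shares.

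Among genes whose change between days was called, predicted genes and clones aside, the highest upward changes from day 1 to day 4 were in Crybb3, a beta crystallin, Gmppb, a GDP-mannose enzyme, and Saa3, an amyloid A protein of macrophages. Crybb3 was lower with amiodarone by -3.90 ± 0.23 on day 1 (adjusted p = 4.9e-24) and gave -0.34 ± 0.23 on day 4 (adjusted p = 0.49), where it was close to background. The largest downward ones were in Cyp2b10, given above, Cnmd, chondromodulin, and Socs2, a brake on growth hormone signalling. Cnmd differed by 2.61 ± 0.28 on day 1 (adjusted p = 1.9e-12) and -0.59 ± 0.28 on day 4 (adjusted p = 0.21). Between day 4 and day 11 the largest called downward changes were in Cyp2b9 and Cyp17a1, both higher in female than in male mouse liver, and Hamp2, a hepcidin. Cyp2b9 differed by 0.48 ± 0.61 on day 4 (adjusted p = 0.78) and -3.95 ± 0.54 on day 11 (adjusted p = 7.9e-08), and Cyp17a1 by 0.90 ± 0.51 (adjusted p = 0.35) and -2.14 ± 0.46 (adjusted p = 0.00055). The called upward changes were led by Prtn3 with 3.30 ± 0.77, Osgin1 with 2.06 ± 0.38 and Il1r1 with 1.42 ± 0.37 (adjusted p = 0.018, 0.0012 and 0.042).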

How the data were processed

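RNA from mouse liver was biotin-labelled with a 3′ in vitro transcription kit and hybridised to Affymetrix arrays, 1 per sample. The values are log2 expression per probe set after RMA by the authors, per the submitters' processing notes; the software version and probe annotation are not given in the sources used here. Groups were taken from compound, dose and day in the labels. Gene names came from the platform annotation, with 1 probe set per gene and 16464 genes tested. Here limma 3.58.1 in R 4.3.3 fitted all 95 arrays as group means, whose shared spread has 74 residual degrees of freedom, with eBayes and Benjamini-Hochberg adjustment over all genes, and a gene was called at an adjusted p under 0.05. Errors are SE of the fit, or SD where named. Arrays have no read depth, so precision rests on how many arrays each group holds. Simulated data with known changes were used to test the fit.

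Named genes were the 12 largest called differences in each direction with groups that did not overlap, up to 3 for each list with at least 2 called members, 15 genes followed for their role, and the 3 largest changes in each direction between days. The members and lists were chosen with earlier results of these data known. Mki67 was not analysed here. Alternatives were a fit of the arrays compared alone, array quality weights, leaving out dim genes, a further quantile normalization, median centring, a variance trend with robust estimation, blocks of 24 sample numbers, and leaving out each array. Plots used matplotlib 3.10.9 (Python 3.11.15).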

Additional observations from a re-analysis of the deposited data

Results flagged for a closer look

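Some arrays lay far from the others of their group in a named gene (log2 values). With 4 arrays in a group, such a gap arises by chance in about 1 of 20 groups. Many genes were looked at in each group, so some of the gaps below are expected by chance. Amiodarone array 017 stood apart for Cyp4a31 (9.17, the others 10.44 to 10.52), Orm2 (7.96), Orm3 (4.22) and Cyp2b10 (5.72), amiodarone array 053 for Osgin1 (7.31) and Mcm6 (4.13), and amiodarone array 069 for Srxn1 (5.68). Valproic acid array 004 stood apart for Cidec (2.23) and Gstm4 (8.03), array 008 for Chac1 (4.28) and Etnppl (8.77), and array 092 for Cyp4a31 (7.98), Gadd45a (4.26) and Crybb3 (3.62). Among the PBS arrays, array 040 stood apart for Mt2 (8.61), Orm2 (8.68), Prtn3 (4.77) and Orm3 (5.53), array 041 for Thrsp (11.01), and array 044 for F7 (8.86).

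The difference between amiodarone and valproic acid changed between day 1 and day 4 for 1604 genes by the interaction term of the limma fit. Among the named genes it changed upward for Crybb3 (3.57), Gmppb (2.98), Saa3 (2.97), Sqle (2.83), Mvd (2.69), Rad51b (2.37), Cxcl1 (2.27), Mogat1 (1.85), Hsd17b7 (1.72), Pdk4 (1.69), Sdf2l1 (1.36), Mcm6 (1.23), Srxn1 (1.19) and Cdkn1a (0.76). It changed downward for Cyp2b10 (-3.78), Cnmd (-3.21), Socs2 (-2.73), Etnppl (-2.50), Hamp2 (-2.48), Acot1 (-2.06), Slc22a7 (-1.85), Cyp39a1 (-1.45), Cyp2c55 (-1.28), Prodh (-1.14), Lum (-0.82), Stab2 (-0.64), Hal (-0.58), Ctsa (-0.46), Dcn (-0.46), Hrg (-0.39), Ctsb (-0.37) and Cyp3a11 (-0.25). Between day 4 and day 11 the difference changed for 147 genes, among them Prtn3 (3.30), Osgin1 (2.06), Il1r1 (1.42), Calr (0.81), Clec4g (0.44) and Hrg (0.35) upward, and Cyp2b9 (-4.43), Cyp17a1 (-3.03), Hamp2 (-2.39), Cyp2c55 (-1.47) and Sqle (-1.41) downward.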

How the results depend on the processing

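Of 1359 values for 91 named genes under the alternatives, 1294 kept their side of the threshold, 60 lost the call and 5 gained one; the sign changed in 3, all for Hamp2, which was not called (0.06, and -0.346 without amiodarone array 017). Of 615 list medians, 592 moved by less than the spread between replicates and 23 moved more. The sign changed in 34 of them, in 9 lists whose reported medians lay between -0.057 and 0.022, so these medians have no settled direction. The 1407 calls of day 4 were 1204 to 1793 under the other fits and 968 (without amiodarone array 069) to 1220 when 1 array was left out. Leaving out 1 array gave 2269 to 2655 calls on day 1, 1047 to 1261 on day 11, 1308 to 1748 for day 4 minus day 1, 733 to 894 for amiodarone minus PBS, 219 to 382 for valproic acid minus PBS and 54 to 231 for day 11 minus day 4. The last count, 147, was 357 with array weights and 264 without dim genes, and its share of upward changes was 26.5%, against 46.6% after a further quantile normalization. The same normalization took the share of calls that were higher from 42.6% to 50.6% on day 11 and from 56.9% to 52.4% on day 4. For amiodarone minus PBS this share went from 64.6% to 54.8%. The 389 calls for valproic acid minus PBS were 251 in a fit of the arrays compared alone. The cause of these shifts was not tested. No paired analysis was possible because sample numbers in the labels are unique across the series, so the groups share none. With 4 arrays a group, an exact two-sided permutation test of a single gene cannot give a p below 0.0286, and signal near background limits folds of dim genes.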

Other observations

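The following genes were chosen after their values were seen. Slc13a3, a dicarboxylate transporter, and Slc3a1, part of a cystine transporter, were lower with amiodarone than with valproic acid by -1.66 ± 0.22 and -1.81 ± 0.28 (limma adjusted p = 2.9e-08 and 1.6e-06), and Prg4, the lubricating proteoglycan, by -1.84 ± 0.28 (adjusted p = 8.6e-07). Prg4 read 7.60, 6.80, 7.14 and 7.26 with amiodarone, against 9.06, 8.85, 9.27 and 8.97 with valproic acid and 8.03, 7.38, 7.25 and 7.26 with PBS. The valproic acid arrays were above all others. Nnmt, which methylates nicotinamide, was lower by -1.52 ± 0.26 (adjusted p = 1.5e-05).

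Among genes higher with amiodarone, Fitm1, a fat storage protein, differed by 1.48 ± 0.25 (adjusted p = 9.8e-06) and Pctp, a phosphatidylcholine transfer protein, by 1.31 ± 0.17 (adjusted p = 1.1e-08). Krt23, a keratin, read 2.69, 4.18, 4.33 and 4.11 with amiodarone, against 2.57, 2.35, 2.64 and 2.11 with valproic acid and 2.46, 2.62, 2.53 and 2.80 with PBS. Amiodarone array 017 was at the level of the PBS arrays, which were close to background. Ly6d, a surface protein of the Ly6 family, differed by 1.68 ± 0.24 (adjusted p = 3.7e-07) on day 4, and its change from day 1 was 1.78 ± 0.35 (adjusted p = 0.00011).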
